A study of Homo sapiens with 9 samples.

Results

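Genes of the solute carrier families SLC1, SLC3, SLC6, SLC7, SLC36, SLC38 and SLC43 were examined in H1299 cells depleted of FIBP. These families hold many of the amino acid transporters of the plasma membrane and lysosomes. Members were chosen by symbol alone, which takes in 10 SLC6 genes listed as carriers of other substrates, such as SLC6A6 and SLC6A8. The families themselves were chosen with earlier results of these data known. Of 60966 genes in the transcript tables, 59 carried a symbol of these families, and 23 of the 59 reached 1 FPKM in at least 3 of the 9 samples and were described in full. FPKM is the number of fragments per kilobase of transcript, scaled to the mapped fragments of the sample, so levels are given per length and can be compared between genes. H1299 is an established human non-small cell lung carcinoma line. It was transfected for 48 h with Scramble siRNA (control, 3 samples), Si-FIBP#1 (3 samples) or Si-FIBP#2 (3 samples). The submitters describe the 3 samples of each group as independent, without saying whether they were separate cultures transfected on different days, so p-values measure the spread between these samples, which may be partly technical. Because the RNA came from whole cultures, fewer cells expressing a gene and less RNA per cell cannot be told apart.

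Amino acid transporters set the supply of amino acids for protein synthesis, redox balance and growth signaling. Light chains such as SLC7A5 (LAT1) reach the plasma membrane bound to the glycoprotein heavy chain SLC3A2, and exchange an amino acid inside the cell for another outside. SLC1A5 (ASCT2) carries glutamine and other small neutral amino acids, the SLC38 family takes up glutamine and alanine with sodium or exports them from lysosomes, and SLC7A1 carries arginine and lysine. In lung carcinoma cells, as in many other tumor cells, SLC7A5, SLC3A2 and SLC1A5 are known for high expression, and part of this group is transcribed under ATF4, the factor that is translated when amino acids run short.

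The promoter windows of 6 of the 7 members that were lower with Si-FIBP#1 are shown, because these genes were lower together. For SLC7A11, the remaining member, no RefSeq window was found. Each window runs from 250 bases before to 50 bases after the RefSeq start site (GRCh38.p14), 5′ to 3′ on the gene's strand, and the window closest to the start of the gene's most abundant annotated transcript was taken. Capitals mark TGATGNAA, the core of the C/EBP-ATF composite element, or CACGTG, the E-box bound by MYC and related factors, on either strand. The positions were chr16:87869458-87869757 (minus strand) for SLC7A5, chr11:62880646-62880945 (plus) for SLC3A2, chr19:46788545-46788844 (minus) for SLC1A5, chr13:29595639-29595938 (minus) for SLC7A1, chr2:64989149-64989448 (plus) for SLC1A4 and chr16:68264276-68264575 (plus) for SLC7A6.
SLC7A5: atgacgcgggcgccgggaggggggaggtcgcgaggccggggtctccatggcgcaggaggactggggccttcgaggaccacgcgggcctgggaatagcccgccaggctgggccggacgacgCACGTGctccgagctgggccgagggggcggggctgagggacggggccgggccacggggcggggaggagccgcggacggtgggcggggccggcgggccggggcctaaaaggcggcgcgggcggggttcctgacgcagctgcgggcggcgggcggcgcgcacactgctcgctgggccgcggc
SLC3A2: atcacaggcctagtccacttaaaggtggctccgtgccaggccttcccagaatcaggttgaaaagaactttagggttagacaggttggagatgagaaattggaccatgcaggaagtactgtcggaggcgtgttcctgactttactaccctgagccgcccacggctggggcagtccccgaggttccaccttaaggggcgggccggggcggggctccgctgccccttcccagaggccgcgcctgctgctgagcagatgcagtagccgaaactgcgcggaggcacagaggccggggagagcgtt
SLC1A5: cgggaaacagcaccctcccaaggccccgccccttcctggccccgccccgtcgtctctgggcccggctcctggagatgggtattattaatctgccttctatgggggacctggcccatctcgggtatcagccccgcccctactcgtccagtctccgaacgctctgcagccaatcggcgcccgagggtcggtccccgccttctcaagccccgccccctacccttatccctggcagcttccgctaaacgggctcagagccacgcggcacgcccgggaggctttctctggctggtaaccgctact
SLC7A1: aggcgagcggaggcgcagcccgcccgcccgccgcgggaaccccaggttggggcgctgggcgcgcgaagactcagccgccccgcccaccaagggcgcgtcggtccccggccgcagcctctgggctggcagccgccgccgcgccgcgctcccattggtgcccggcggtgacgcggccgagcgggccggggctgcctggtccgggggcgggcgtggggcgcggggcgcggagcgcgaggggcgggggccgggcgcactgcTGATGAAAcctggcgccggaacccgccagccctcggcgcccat
SLC1A4: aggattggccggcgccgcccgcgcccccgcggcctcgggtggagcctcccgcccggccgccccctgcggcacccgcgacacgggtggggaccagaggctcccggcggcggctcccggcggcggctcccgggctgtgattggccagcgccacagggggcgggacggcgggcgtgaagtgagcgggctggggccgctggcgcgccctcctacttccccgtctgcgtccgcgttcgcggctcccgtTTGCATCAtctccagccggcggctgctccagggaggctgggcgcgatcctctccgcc
SLC7A6: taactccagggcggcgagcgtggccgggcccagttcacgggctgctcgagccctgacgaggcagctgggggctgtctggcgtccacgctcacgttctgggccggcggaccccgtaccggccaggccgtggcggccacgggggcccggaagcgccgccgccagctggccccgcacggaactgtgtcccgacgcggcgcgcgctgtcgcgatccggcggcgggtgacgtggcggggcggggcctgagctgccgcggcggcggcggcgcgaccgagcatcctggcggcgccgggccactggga

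A RefSeq window was found for 19 of the 23 members. The TGATGNAA core was present in 2 of the 19 windows, those of SLC7A1 and SLC1A4, against 3.62% of all 35116 promoter windows of the same length. In SLC1A4 the core lies on the opposite strand, which is why it is printed as TTGCATCA. CACGTG was present in 4 of the 19 windows, those of SLC7A5, SLC36A1, SLC38A7 and SLC43A1, against 7.26% of all windows, and this motif was added to the search after values of the data had been seen. The comparison is not like for like, since the members' windows hold 59.3% to 82.0% G and C and 17 to 49 CpG, against medians of 58.7% and 14 over all windows, and CACGTG contains a CpG. No match in the SLC3A2, SLC1A5 and SLC7A6 windows says only that these letters are absent there. At the other 14 RefSeq starts of these genes, farther from the start of the most abundant transcript, 3 windows held the TGATGNAA core, 1 each of SLC3A2, SLC1A5 and SLC38A1, and 1 window of SLC1A5 held CACGTG.

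FIBP, the siRNA target, had Scramble values of 88.38, 79.49 and 77.74 FPKM, Si-FIBP#1 values of 7.49, 7.77 and 4.3 FPKM and Si-FIBP#2 values of 7.13, 5.92 and 8.21 FPKM, so 7.96% and 8.66% of the Scramble mean remained. The estimated depth was 20150000 to 24100000 fragments per sample. The epithelial keratins KRT8 and KRT18 were expressed, with Scramble means of 107 and 476 FPKM, and so were the mesenchymal markers VIM, CDH2 and FN1, with means of 3230, 13.3 and 11.2 FPKM. Both keratins passed as lower with each siRNA (log2 fold change -0.53 and -0.49 for KRT8), and KRT18 was called (-1.19 and -1.45). VIM was lower with each (-0.49 and -0.715), CDH2 higher (0.35 and 0.43), and FN1 lower with Si-FIBP#2 (-0.49), with a value of 0.12 for Si-FIBP#1 (adjusted p 0.53). CDH1 was listed at 0, and EPCAM, KRT19, NKX2-1, SFTPC, SFTPB and NAPSA stayed below 1 FPKM on average in each group. Of the 5 markers of other cells, CD3E was listed at 0, PTPRC and PECAM1 were below 0.1 FPKM, ALB was at 0.123, 0.547 and 0.527 FPKM and COL1A1 at 0.0767, 0.687 and 1.09 FPKM in Scramble, Si-FIBP#1 and Si-FIBP#2. The part of these marker levels in the results below was not tested.

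Levels of the 23 members spanned more than 2 orders of magnitude. SLC38A2, which takes up alanine and glutamine with sodium, was the most abundant in every group, at 197.2 to 203.98 FPKM in Scramble, followed by mean levels of 82.7 for SLC3A2, 63.6 for SLC38A1, 54.5 for SLC7A5 and 53.8 FPKM for SLC1A5. The Scramble samples of SLC7A5 and SLC1A5 overlapped, so their order was not resolved, whereas the other neighbours among these 5 did not overlap. From SLC38A7 at 8.73 down to SLC43A2 at 5.41 FPKM, each gene overlapped the next in the order. In the depleted cells SLC7A5 moved from rank 4 to rank 7 with either siRNA, and SLC6A6 moved from rank 10 to rank 6 with Si-FIBP#1 and rank 5 with Si-FIBP#2.

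**Figure D1:**
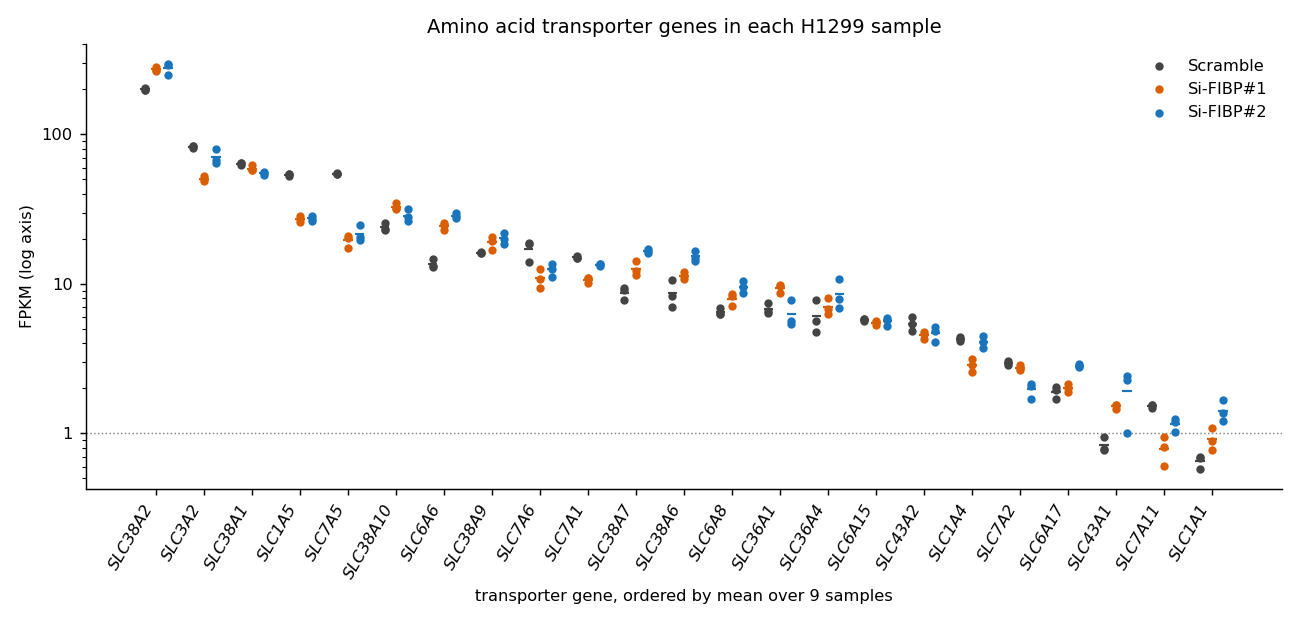
FPKM of the 23 transporter genes on a log axis in each of the 9 samples, ordered by the mean over all samples, with a short line at each group mean and a dotted line at 1 FPKM. SLC38A2 lies highest at 197.2 to 294.71 FPKM, and SLC7A5 and SLC1A5 of the depleted samples lie below all 3 Scramble samples.

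Of the families, 3 of 7 SLC1 genes, 1 of 2 SLC3 genes, 4 of 19 SLC6 genes, 5 of 13 SLC7 genes, 2 of 4 SLC36 genes, 6 of 11 SLC38 genes and 2 of 3 SLC43 genes were kept. Of the 36 genes left out, 11 were listed at 0 in all 9 samples, among them SLC43A3, SLC6A19 and SLC38A11. The closest to the floor were SLC7A13, SLC7A7 and SLC6A9, with highest values of 0.96, 0.92 and 0.7 FPKM. Just inside it were SLC1A1, at 0.58 to 0.7 FPKM in Scramble and 0.78 to 1.68 FPKM in the depleted samples, SLC43A1, at 0.77 to 0.95 FPKM in Scramble and 1.01 to 2.44 FPKM in the depleted samples, and SLC7A11, at 1.47 to 1.56 FPKM in Scramble and 0.61 to 1.25 FPKM in the depleted samples. SLC1A1 and SLC43A1 were kept only through depleted samples, so a difference from Scramble was built into their selection. The other 20 members were at 1 FPKM or more in all 9 samples.

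Fold changes were fitted with limma on log2(FPKM + 1) over 14985 genes and adjusted by the Benjamini-Hochberg method. On this scale the changes of low genes are understated. A gene passed the test at an adjusted p below 0.05, and was called when it also changed over 2-fold, the thresholds that the study states. With Si-FIBP#1, 7 of 23 members were higher (27.8% of all genes tested) and 7 were lower (19.9%), and 1 was called (5.66% of all genes). With Si-FIBP#2, 10 members were higher (31.1%) and 6 were lower (17.7%), and 2 were called (5.05%). Among the 20 members at 1 FPKM or more in all samples, 7 were higher with Si-FIBP#1 and 6 lower, and for Si-FIBP#2 the counts were 8 and 6. Of these 20 members, 15 did not overlap Scramble with Si-FIBP#1 (58.9% of all genes) and 15, in part other genes, with Si-FIBP#2 (57.3%). These shares cover all genes tested, which needed 1 FPKM in only 3 samples, so they are not like for like with the 20 members. The median log2 fold change of the 23 members was 0.053 and -0.03 beside 0.073 and 0.11 for all genes. Both comparisons share the 3 Scramble samples. With samples rescaled to TPM or by the median ratio, 5 members were higher and 8 lower with Si-FIBP#1, beside 24.4% and 21.9% of all genes after TPM scaling and 22.5% and 24.0% after median ratio scaling. Median ratio scaling moved the median of all genes with Si-FIBP#2 from 0.1108 to 0.0063, and the members then split into 8 higher and 7 lower, beside 22.3% and 24.4% of all genes. The 8 include SLC1A1 and SLC43A1, which were kept only through depleted samples, so their rise was built into the selection.

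The heavy chain SLC3A2 and all 3 light chains above the floor were lower with Si-FIBP#1, and SLC3A2, SLC7A5 and SLC7A6 were lower with Si-FIBP#2. SLC7A5, the light chain that carries leucine and other large neutral amino acids, was at 54.82, 54.56 and 54.23 FPKM in Scramble, against 17.5, 20.92 and 20.42 FPKM in the Si-FIBP#1 samples and 19.64, 24.68 and 20.74 FPKM in the Si-FIBP#2 samples. All 6 depleted samples were far below the lowest Scramble sample, and the depleted groups overlapped each other. The log2 fold change was -1.43 (SE 0.091, adjusted p 2.8e-06) with Si-FIBP#1 and -1.30 (SE 0.091, adjusted p 5.5e-06) with Si-FIBP#2, and SLC7A5 was the only member called with both siRNAs. The siRNAs did not differ in this gene beyond their spread (log2 difference 0.14, SE 0.091, adjusted p 0.363). The gene (ENSG00000103257) lies at chr16:87830023-87869488 on the minus strand (GRCh38, GENCODE 29). Its transcript ENST00000261622, at 68.4% of the gene's Scramble value, fell from 37.3 ± 1.62 to 12.5 ± 0.861 and 13.9 ± 1.77 FPKM (SD, n = 3). The pseudogene SLC7A5P2, which resembles part of SLC7A5, reached at most 1.12 FPKM.

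SLC3A2, the heavy chain that holds these light chains in the membrane, was at 83.3, 83.79 and 80.99 FPKM in Scramble, against 48.9, 52.74 and 50.02 FPKM in the Si-FIBP#1 samples and 66.94, 79.34 and 64.23 FPKM in the Si-FIBP#2 samples. Every depleted sample was below every Scramble sample, but Si-FIBP#2 replicate 2 came close. SLC3A2 fell with Si-FIBP#1 (log2 fold change -0.70, SE 0.075, adjusted p 6.4e-05) and fell less with Si-FIBP#2 (-0.24, SE 0.075, adjusted p 0.0244), and the difference between the siRNAs itself passed (0.46, SE 0.075, adjusted p 0.00425). The pass with Si-FIBP#2 was lost without filtering (adjusted p 0.0555) and without Scramble replicate 1 or 2 or Si-FIBP#2 replicate 1 or 3 (adjusted p 0.0596 to 0.0899), and the change was -0.33 (adjusted p 0.000854) without Si-FIBP#2 replicate 2.

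The ratio of SLC7A5 to SLC3A2 FPKM was 0.658, 0.651 and 0.67 in Scramble, against 0.358, 0.397 and 0.408 in the Si-FIBP#1 samples and 0.293, 0.311 and 0.323 in the Si-FIBP#2 samples. The light chain thus fell further than the heavy chain in each of the 6 depleted samples, and the 3 groups did not overlap. The summed ratio of SLC7A5, SLC7A6, SLC7A7, SLC7A8, SLC7A10 and SLC7A11 to SLC3A2 averaged 0.888 ± 0.0442 in Scramble, against 0.622 ± 0.0254 for the first siRNA and 0.511 ± 0.00971 for the second (SD, n = 3). These ratios are descriptions without a test.

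**Figure D2:**
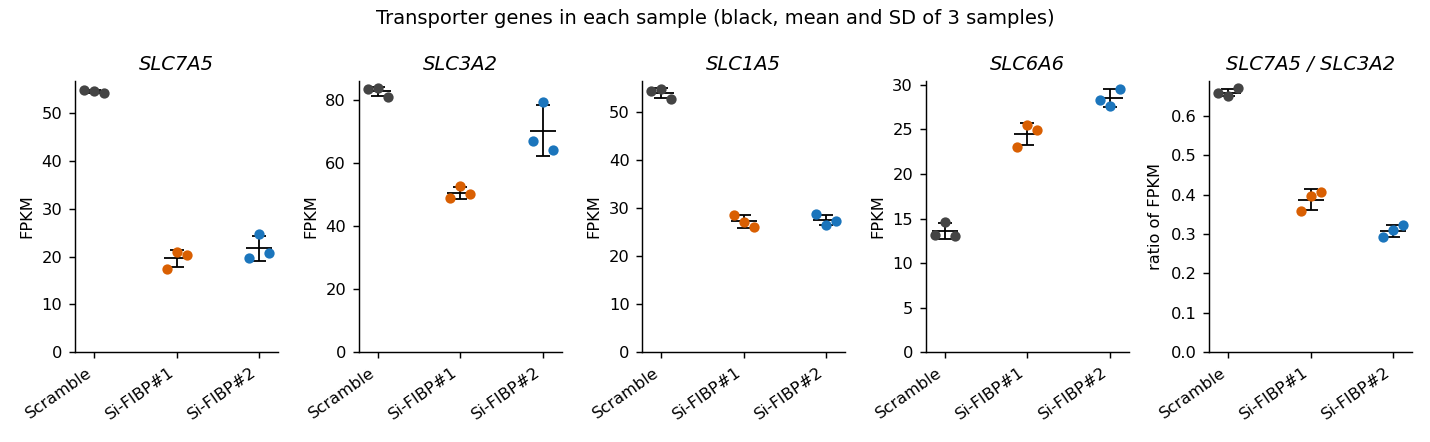
FPKM of SLC7A5, SLC3A2, SLC1A5 and SLC6A6 and the ratio of SLC7A5 to SLC3A2 in each of the 3 Scramble, 3 Si-FIBP#1 and 3 Si-FIBP#2 samples, with the mean and SD of each group in black and axes that start at 0. SLC7A5 and SLC1A5 lie at similar levels with both siRNAs, SLC3A2 lies lower with Si-FIBP#1 than with Si-FIBP#2, and SLC6A6 lies above Scramble with both.

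SLC7A11 (xCT), the light chain that imports cystine in exchange for glutamate, was at 1.47, 1.55 and 1.56 FPKM in Scramble, against 0.61, 0.95 and 0.81 FPKM in the Si-FIBP#1 samples and 1.02, 1.2 and 1.25 FPKM in the Si-FIBP#2 samples. The Scramble samples were above all depleted samples. The change with Si-FIBP#1 passed (log2 fold change -0.50, SE 0.127, adjusted p 0.00906) and that with Si-FIBP#2 did not (-0.23, SE 0.127, adjusted p 0.161). At this level near the floor, the Si-FIBP#1 mean was 51.7% of Scramble although the log2(FPKM + 1) change was modest. SLC7A6, a light chain that exchanges cationic for neutral amino acids, passed as lower with both siRNAs (-0.61, adjusted p 0.0046, and -0.42, adjusted p 0.027). The Si-FIBP#2 pass was lost without filtering (adjusted p 0.074) and without Scramble replicate 1 or 3 or Si-FIBP#2 replicate 1 or 3 (adjusted p 0.0537 to 0.0926). The exons of SLC7A6 share 44.4% of their bases with SLC7A6OS on the opposite strand, which was at 10.64, 9.53 and 10.26 FPKM on average, and strand-specific counting is not stated, so reads of the pair cannot be told apart.

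The neutral exchangers SLC1A5 and SLC1A4 differed in how they followed the siRNAs. SLC1A5, a glutamine transporter, was at 54.23, 54.64 and 52.67 FPKM in Scramble, against 28.58, 26.97 and 25.94 FPKM in the Si-FIBP#1 samples and 28.66, 26.43 and 27.31 FPKM in the Si-FIBP#2 samples. Its Si-FIBP#1 mean was 50.4% of Scramble, and all depleted samples were far below the lowest Scramble sample. The log2 fold change was -0.96 (SE 0.056, adjusted p 1.7e-06) and -0.95 (SE 0.056, adjusted p 2.3e-06), just short of the 2-fold threshold, which it crossed with Si-FIBP#1 after TPM scaling (-1.01) and with both siRNAs after median ratio scaling (-1.04 and -1.07). The gene (ENSG00000105281) lies at chr19:46774883-46788594 on the minus strand, and 23.4% of its exon bases are shared with the antisense gene AC008622.2, which was at 0.71, 0.91 and 0.47 FPKM on average. SLC1A4, which carries alanine, serine and cysteine, was at 4.3, 4.18 and 4.42 FPKM in Scramble, against 2.89, 2.56 and 3.16 FPKM in the Si-FIBP#1 samples and 3.75, 4.48 and 4.08 FPKM in the Si-FIBP#2 samples. Only the Si-FIBP#1 samples stood apart. SLC1A4 fell with Si-FIBP#1 (-0.46, SE 0.097, adjusted p 0.00376), had a value of -0.057 with Si-FIBP#2 (adjusted p 0.661), and the siRNAs differed by 0.40 (adjusted p 0.0233). That difference was lost without filtering (adjusted p 0.0586), with only the groups compared in the fit (0.0633) and without Si-FIBP#1 replicate 1 or 2 or Si-FIBP#2 replicate 3 (0.0626 to 0.0862).

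Among the cationic carriers, SLC7A1 (CAT1), the main importer of arginine and lysine in many cells, was at 15.4, 14.87 and 14.93 FPKM in Scramble, against 10.19, 10.95 and 10.93 FPKM in the Si-FIBP#1 samples and 13.21, 13.59 and 13.53 FPKM in the Si-FIBP#2 samples. The 3 groups did not overlap, with Si-FIBP#2 in between. SLC7A1 fell with Si-FIBP#1 (log2 fold change -0.46, SE 0.06, adjusted p 0.00021), the Si-FIBP#2 value of -0.15 narrowly missed the threshold (SE 0.06, adjusted p 0.0571), and the siRNAs differed by 0.31 (adjusted p 0.00933). The Si-FIBP#2 value passed after median ratio scaling (-0.27, adjusted p 0.00421), without filtering (adjusted p 0.0458) and without a mean-variance trend (0.0486). Across the alternatives it ranged from -0.269 to -0.073, with an adjusted p of up to 0.467. SLC7A2, a cationic carrier of the same subfamily, was at 2.87, 2.96 and 3.03 FPKM in Scramble, against 2.64, 2.73 and 2.89 FPKM in the Si-FIBP#1 samples and 2.09, 2.14 and 1.7 FPKM in the Si-FIBP#2 samples. It was lowest in the Si-FIBP#2 samples. It fell with Si-FIBP#2 (-0.41, SE 0.101, adjusted p 0.00755) and had a value of -0.075 with Si-FIBP#1 (adjusted p 0.569), while the difference between the siRNAs missed the threshold (-0.34, adjusted p 0.0511), although it passed with a pseudocount of 0.1, after median ratio scaling, without a mean-variance trend and without Si-FIBP#2 replicate 2 (adjusted p 0.0205 to 0.0488).

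Of the 6 neutral carriers of the SLC38 family above the floor, 4 were higher with Si-FIBP#1 (27.8% of all genes) and 5 with Si-FIBP#2 (31.1%). After TPM scaling these counts were 3 and 5, beside 24.4% and 30.9% of all genes, and after median ratio scaling they were 3 and 3, beside 22.5% and 22.3%, with 1 member lower in each case. SLC38A2 was at 198.14, 197.2 and 203.98 FPKM in Scramble, against 269.29, 265.14 and 281.12 FPKM in the Si-FIBP#1 samples and 289.91, 250.11 and 294.71 FPKM in the Si-FIBP#2 samples. All depleted samples were above all Scramble samples, and SLC38A2 rose by 0.44 (SE 0.062, adjusted p 0.00033) and 0.47 (SE 0.062, adjusted p 0.00022) on the log2 scale. SLC38A1, which carries similar substrates, was at 62.3, 63.97 and 64.65 FPKM in Scramble, against 57.62, 57.36 and 62.38 FPKM in the Si-FIBP#1 samples and 56.1, 53.41 and 55.0 FPKM in the Si-FIBP#2 samples. It moved the other way, with a fall with Si-FIBP#2 (-0.21, SE 0.05, adjusted p 0.00652) and a value of -0.105 with Si-FIBP#1 (adjusted p 0.112). The Si-FIBP#1 value passed after TPM scaling (-0.15, adjusted p 0.0421) or median ratio scaling (-0.18, adjusted p 0.0199) and without Si-FIBP#1 replicate 3 (-0.14, adjusted p 0.0494). Transcripts assembled by the authors held 60.3% of the SLC38A1 value.

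SLC38A7, a lysosomal exporter of glutamine and asparagine, rose with both siRNAs (log2 fold change 0.48, adjusted p 0.00229, and 0.85, adjusted p 7.8e-05), from 8.73 ± 0.841 to 12.6 ± 1.44 and 16.5 ± 0.561 FPKM (SD, n = 3). The siRNAs differed in SLC38A7 by 0.37 (adjusted p 0.0272), a difference lost without filtering (0.0644) and without Si-FIBP#1 replicate 2 or 3 or Si-FIBP#2 replicate 1 or 3 (0.07 to 0.0932). SLC38A6, a less studied member of the family, was at 6.97, 10.65 and 8.3 FPKM in Scramble, against 10.73, 11.94 and 11.37 FPKM in the Si-FIBP#1 samples and 14.27, 15.0 and 16.49 FPKM in the Si-FIBP#2 samples. Scramble replicate 2 came close to the Si-FIBP#1 samples, and the Si-FIBP#2 samples were highest. SLC38A6 rose with Si-FIBP#2 (0.77, SE 0.126, adjusted p 0.00083), while the rise with Si-FIBP#1 (0.37, SE 0.126, adjusted p 0.0341) held in 8 of 18 alternatives. The latter was lost without Scramble replicate 1 or 3 or any single Si-FIBP#1 sample (adjusted p 0.051 to 0.106). It was also lost without filtering (0.0873), after TPM (0.058) or median ratio scaling (0.0879), with Ensembl transcripts only (0.0915) and with only the compared groups fitted (0.054).

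SLC38A10, a widely expressed and less studied carrier, was at 25.4, 23.0 and 23.28 FPKM in Scramble, against 34.61, 31.69 and 32.01 FPKM in the Si-FIBP#1 samples and 27.86, 31.87 and 26.18 FPKM in the Si-FIBP#2 samples. Scramble was lowest, and the depleted groups overlapped each other. SLC38A10 rose by 0.44 with Si-FIBP#1 (adjusted p 0.00145) and by 0.25 with Si-FIBP#2 (adjusted p 0.0267), but the latter rise was lost without filtering (0.0547), after median ratio scaling (0.13, adjusted p 0.166) and without Scramble replicate 2 or 3 or Si-FIBP#2 replicate 2 (0.0688 to 0.0862). SLC38A9, a lysosomal carrier that reports arginine to mTORC1, rose with Si-FIBP#2 (0.30, adjusted p 0.016), except after median ratio scaling (0.18, adjusted p 0.0955). Its value with Si-FIBP#1 was 0.22 (adjusted p 0.0616), which passed with the replicate block (0.0453) and without Si-FIBP#1 replicate 1 (0.019) or Si-FIBP#2 replicate 2 (0.0413).

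SLC6A6, the taurine transporter, was the member with the largest rise on the log2(FPKM + 1) scale. As a ratio of means its depleted samples were at 180.0% and 210.0% of Scramble, below SLC43A1 (182% and 228%) with each siRNA and below SLC1A1 (216%) with Si-FIBP#2, which are both low in level. It was at 13.13, 14.58 and 13.02 FPKM in Scramble, against 23.04, 25.48 and 24.91 FPKM in the Si-FIBP#1 samples and 28.33, 27.58 and 29.58 FPKM in the Si-FIBP#2 samples, and the groups did not overlap. SLC6A6 rose by 0.81 (SE 0.067, adjusted p 1.3e-05) and 1.02 (SE 0.067, adjusted p 3.8e-06) on the log2 scale, and was called with Si-FIBP#2. As it lay at the 2-fold threshold, the call was lost when assembled transcripts were left out (0.80), after median ratio scaling (0.90) and without Scramble replicate 1 or 3 or Si-FIBP#2 replicate 3 (0.99 to 1.00), with the adjusted p at 4.5e-05 or less in each. The gene (ENSG00000131389) lies at chr3:14402576-14489349 on the plus strand. Its main transcript ENST00000622186 rose from 9.08 ± 0.203 to 16.2 ± 1.27 and 17.6 ± 1.05 FPKM, and an assembled transcript of the gene from 1.72 ± 0.183 to 4.23 ± 0.836 and 7.12 ± 0.441 FPKM (SD, n = 3, not tested).

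SLC6A8, the creatine transporter, also rose, by 0.26 with the first siRNA (adjusted p 0.0439) and by 0.50 with the second (adjusted p 0.00177). Its rise with Si-FIBP#1 was the least stable, since it held in 7 of 18 alternatives. This rise was lost without filtering (0.0853), after TPM (0.0754) or median ratio scaling (0.138) and with Ensembl transcripts only (0.0552). It was also lost with the replicate block (0.0713) and without any single Scramble sample, Si-FIBP#1 replicate 1 or 2 or Si-FIBP#2 replicate 1 (0.0573 to 0.142). SLC6A17, a vesicular carrier of neutral amino acids in neurons, rose with Si-FIBP#2 (0.40, adjusted p 0.00854) and had a value of 0.053 with Si-FIBP#1 (adjusted p 0.692). The difference between the siRNAs in SLC6A17 (0.35, adjusted p 0.045) was lost with the replicate block (0.0781) and without any single one of the 9 samples (0.0508 to 0.133). SLC6A15, which carries branched-chain amino acids and proline, was at 5.25 to 5.88 FPKM across all 9 samples, with log2 values of -0.05 and -0.03 (adjusted p 0.621 and 0.77).

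The proton-coupled carrier SLC36A1, which exports small amino acids from lysosomes, was at 7.41, 6.64 and 6.37 FPKM in Scramble, against 9.65, 9.76 and 8.68 FPKM in the Si-FIBP#1 samples and 5.43, 7.78 and 5.64 FPKM in the Si-FIBP#2 samples. The Si-FIBP#1 samples were above all others, and Si-FIBP#2 overlapped Scramble. SLC36A1 rose with Si-FIBP#1 (0.41, SE 0.122, adjusted p 0.0201), had a value of -0.11 with Si-FIBP#2 (adjusted p 0.477), and showed the largest negative difference between the siRNAs (-0.52, SE 0.122, adjusted p 0.0199). The rise was lost without filtering (0.0544) and without Scramble replicate 2 or 3 or Si-FIBP#1 replicate 1 or 2 (0.0569 to 0.066). The difference was lost without filtering (0.0581) and without Si-FIBP#1 replicate 1 or 2 or Si-FIBP#2 replicate 1 or 3 (0.0665 to 0.0754), and without Si-FIBP#2 replicate 2 it was -0.66 (adjusted p 0.00178) and the value against Scramble passed (-0.25, adjusted p 0.0467). SLC36A4, which carries proline and tryptophan, passed in neither comparison (0.21, adjusted p 0.38, and 0.44, adjusted p 0.0737), though the second passed without Scramble replicate 2 (0.0233) or Si-FIBP#2 replicate 1 (0.0414).

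SLC1A1, a carrier of glutamate, aspartate and cysteine, and SLC43A1 (LAT3), a facilitator for large neutral amino acids, were kept only through depleted samples, so their values against Scramble are given as descriptions. SLC1A1 had a log2 value of 0.21 for the first siRNA and 0.54 for the second. Across the alternatives these ranged from 0.148 to 0.419 and from 0.467 to 0.999. SLC43A1 had values of 0.46 and 0.62, and with Si-FIBP#2 replicate 3 at 1.01 FPKM lay far below the other 2 samples at 2.28 and 2.44 FPKM. Without this sample the second value was 0.87. As a pseudocount of 1 is large beside the level of SLC43A1, a pseudocount of 0.1 gave 0.80 and 1.015, and its Si-FIBP#2 mean was 228% of Scramble. SLC43A2 (LAT4), with the same role, passed in neither comparison (-0.21, adjusted p 0.138, and -0.17, adjusted p 0.208).

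**Figure D3:**
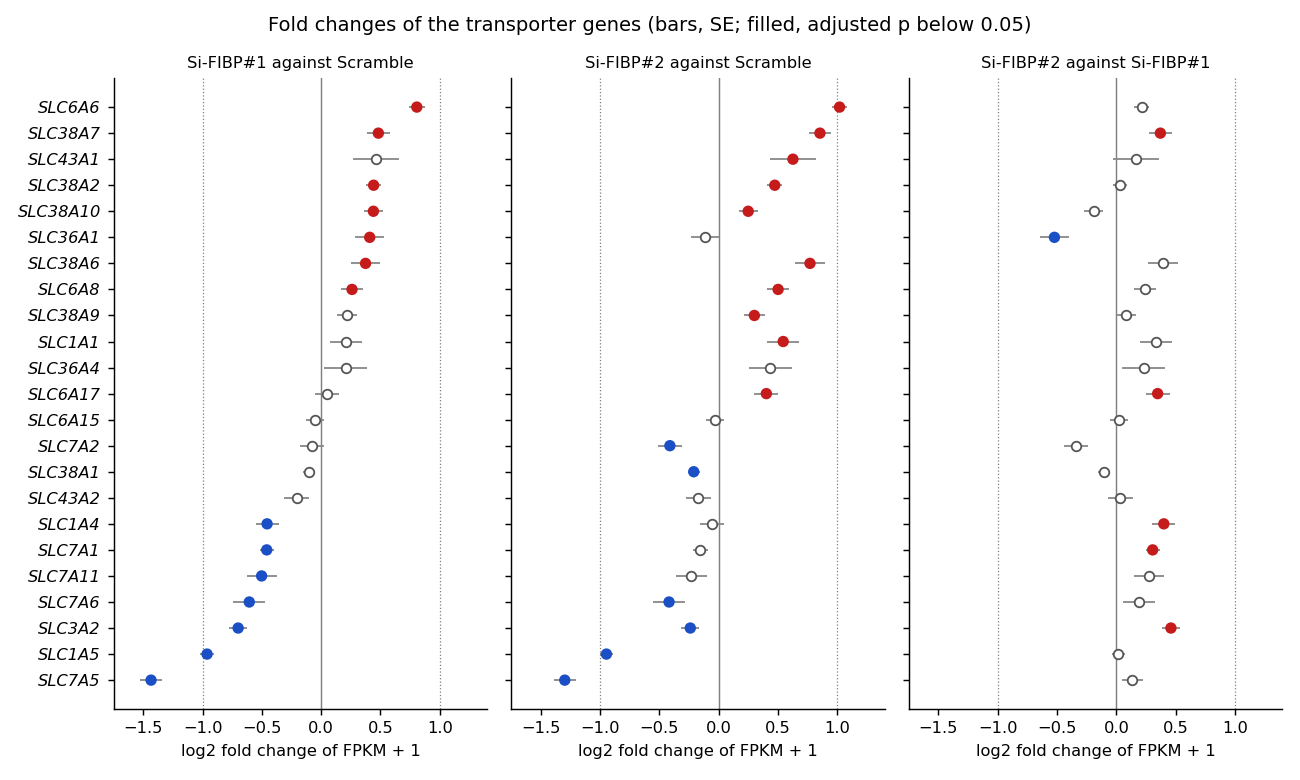
Log2 fold changes of FPKM + 1 with SE bars for the 23 transporter genes in the 3 comparisons, filled where the adjusted p was below 0.05 (red higher, blue lower) and open otherwise, with dotted lines at 2-fold. SLC7A5 at -1.43 and -1.30 and SLC6A6 at 0.81 and 1.02 mark the ends of the range against Scramble, and between the siRNAs all 23 genes lie within 2-fold. SLC1A1 and SLC43A1 were kept only through depleted samples.

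Comparing the siRNAs directly, none of the 23 members was called by limma (0.561% of all genes). At any fold, 5 members were higher with Si-FIBP#2 than with Si-FIBP#1 (9.58% of all genes), namely SLC3A2, SLC1A4, SLC38A7, SLC6A17 and SLC7A1, and SLC36A1 was lower (5.8%). Of the 20 members at 1 FPKM or more in all samples, 11 did not overlap between the siRNAs, against 32.9% of all genes. That share also covers genes that reached 1 FPKM in only 3 samples, so the sets are not like for like. The median log2 difference was 0.19 over the members and 0.04 over all genes. After median ratio scaling 4 were higher (7.17% of all genes) and 2 lower (7.93%). After TPM scaling 7 were higher (12.6%) and 1 lower (4.26%), as SLC6A6 (adjusted p 0.0306) and SLC38A6 (adjusted p 0.0451) also passed. SLC3A2 and SLC7A1 were the pair that passed under all 18 alternatives.

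Other genes that handle amino acids were taken from 5 lists, which were chosen with earlier results of these data known. Counts of these lists are read beside the shares over all genes, which were 27.8% (higher) and 19.9% (lower) for the first siRNA and 31.1% and 17.7% for the second, and beside the medians of 0.073 and 0.11 over all genes. Among 15 tested carriers of other families, 7 were higher (46.7%) and 1 lower (6.67%) with each siRNA, and the list medians were 0.28 and 0.11. With Si-FIBP#1 the split was 3 higher and 2 lower after TPM scaling, beside 24.4% and 21.9% of all genes, and 2 higher and 3 lower after median ratio scaling, beside 22.5% and 24.0%. With Si-FIBP#2 it was 6 and 3 after the latter, beside 22.3% and 24.4%. None of the 15 was called. The largest rises were SLC25A13, a mitochondrial aspartate-glutamate carrier, at 0.46 with Si-FIBP#1, and SLC25A44, a mitochondrial carrier of branched-chain amino acids, at 0.89 with Si-FIBP#2. The falls that passed were MFSD12, which is needed for cysteine import into lysosomes, at -0.26 (adjusted p 0.0432) with Si-FIBP#1 and the glutamate carrier SLC25A22 at -0.40 (adjusted p 0.00675) with Si-FIBP#2, and SLC25A22 was higher with Si-FIBP#1 (0.28, adjusted p 0.0358).

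Of 37 tested genes of amino acid sensing by mTORC1, 16 rose with Si-FIBP#1 (43.2%, beside 27.8% of all genes) and 4 fell (10.8%, beside 19.9%). With Si-FIBP#2, 18 rose (48.6%, beside 31.1%) and 3 fell (8.11%, beside 17.7%), and the list medians were 0.21 and 0.22 beside 0.073 and 0.11. After median ratio scaling 14 rose and 6 fell with Si-FIBP#1, and 17 rose and 8 fell with Si-FIBP#2, beside 22.5% higher and 24.0% lower and 22.3% higher and 24.4% lower over all genes. CASTOR1, the cytosolic arginine sensor, was called with Si-FIBP#1 (1.43, adjusted p 0.00062) and passed with Si-FIBP#2 (0.87, adjusted p 0.00968). RRAGD, a Rag GTPase, was called with Si-FIBP#2 (1.47, adjusted p 3.6e-05) and passed with Si-FIBP#1 (0.98, adjusted p 0.00042). The largest fall was that of RHEB, the GTPase that activates mTORC1, at -0.72 (adjusted p 0.00024) and -0.37 (adjusted p 0.0102). The list holds activators of mTORC1, such as RHEB, and inhibitors, such as CASTOR1 and TSC2, so its counts give no direction for the pathway.

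Of 22 tested enzymes of amino acid synthesis, 2 rose with Si-FIBP#1 (9.09%, beside 27.8% of all genes) and 12 fell (54.5%, beside 19.9%). With Si-FIBP#2, 4 rose (18.2%, beside 31.1%) and 13 fell (59.1%, beside 17.7%), and the list medians were -0.285 and -0.26. Rescaling to TPM or by the median ratio left 13 or 14 falls with either siRNA (59.1% to 63.6%, beside 17.6% to 24.4% of all genes), while the rises went to 1 with Si-FIBP#1 under both scalings and to 1 with Si-FIBP#2 under the latter. PHGDH, which starts serine synthesis, fell from a Scramble mean of 55.4 to 19.2 and 18.9 FPKM (-1.49, adjusted p 3.2e-06, and -1.51, adjusted p 3.6e-06). ASNS, which makes asparagine, fell from 87.5 to 33.2 and 37.1 FPKM (-1.37, adjusted p 6.6e-07, and -1.22, adjusted p 1.3e-06). Both were called with both siRNAs, and GLUD1, glutamate dehydrogenase, was called with Si-FIBP#2 (-1.20, adjusted p 6.8e-06). The largest rises were BCAT2, a branched-chain aminotransferase, with Si-FIBP#1 (0.48, adjusted p 0.00159) and GPT2, a mitochondrial alanine aminotransferase, with Si-FIBP#2 (0.51, adjusted p 0.0005).

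In the GCN2 and ATF4 response, 3 of 17 tested genes rose with Si-FIBP#1 (17.6%, beside 27.8% of all genes) and 6 fell (35.3%, beside 19.9%). With Si-FIBP#2, 2 rose (11.8%, beside 31.1%) and 2 fell (11.8%, beside 17.7%), both below the share over all genes, and the list medians were -0.012 and 0.01. After median ratio scaling 1 rose (5.88%, beside 22.3% of all genes) and 4 fell (23.5%, beside 24.4%) with Si-FIBP#2. ATF4 RNA, a transcript whose translation is the usual point of control, fell from 128 to 75.6 and 88.6 FPKM (-0.75, adjusted p 3.9e-06, and -0.525, adjusted p 3.7e-05). ATF5, a related factor, was called lower with Si-FIBP#1 (-1.06, adjusted p 0.0155), and VLDLR, a lipoprotein receptor, was called higher with Si-FIBP#2 (1.15, adjusted p 3.8e-06). TRIB3 and CHAC1, genes of this list, were picked after their values had been seen and passed with neither siRNA. They do not stand for the list, in which 6 genes fell with Si-FIBP#1. TRIB3 had values of 0.22 and 0.19 (adjusted p 0.0718 and 0.12) and CHAC1 of 0.33 and 0.29 (adjusted p 0.0676 and 0.0985). Of 13 tested regulators of transporter abundance, 3 rose with Si-FIBP#1 (23.1%, beside 27.8%) and 4 fell (30.8%, beside 19.9%), and 2 rose with Si-FIBP#2 (15.4%, beside 31.1%) and 6 fell (46.2%, beside 17.7%). The list medians were 0.025 and -0.15, and the first was -0.021 after TPM scaling. Median ratio scaling gave medians of -0.054 and -0.265, and the 2 rises with Si-FIBP#2 then no longer passed. OTUB1, a deubiquitinase that stabilizes SLC7A11, had the largest rise of the list (0.44, adjusted p 0.00072, and 0.20, adjusted p 0.0382). ARL6IP5, a partner of SLC1A1, was called lower with Si-FIBP#2 (-1.39, adjusted p 1.1e-06), with a value of -0.048 with Si-FIBP#1 (adjusted p 0.605). MYC, with a Scramble mean of 77.6 FPKM, fell with Si-FIBP#2 (-0.68, adjusted p 3.1e-05), with a value of 0.025 with Si-FIBP#1 (adjusted p 0.777).

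**Figure D4:**
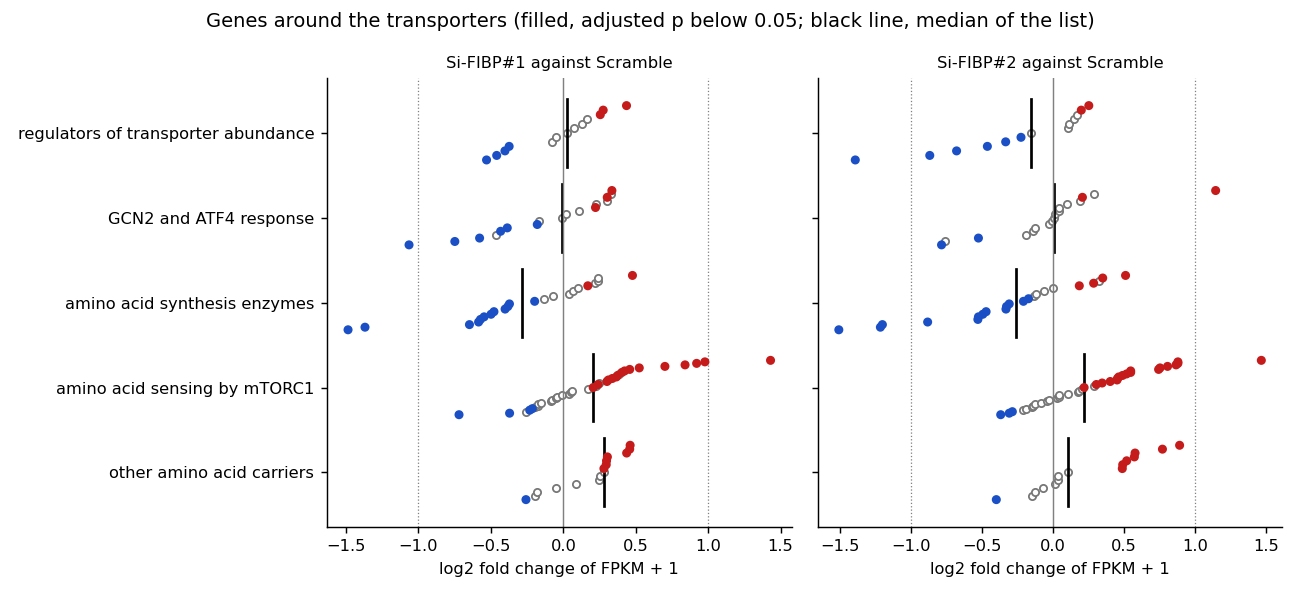
Log2 fold changes of FPKM + 1 for each tested gene of the 5 lists with Si-FIBP#1 (left) and Si-FIBP#2 (right) against Scramble, filled where the adjusted p was below 0.05, with the list median as a black line and dotted lines at 2-fold. The synthesis enzymes lie mostly below 0 with medians of -0.285 and -0.26, and the mTORC1 sensing genes mostly above 0 with medians of 0.21 and 0.22. The sensing list holds both activators and inhibitors of mTORC1.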

How the data were processed

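PolyA-selected RNA of 9 H1299 samples was sequenced as paired ends. The authors deposited 1 transcript table per sample with FPKM values, a unit inferred from the values, covering Ensembl transcripts as well as newly assembled ones. The submitters' processing notes name HISAT2 and StringTie. Their versions, the genome build, the annotation release and the strand setting are not given in the sources used here. FPKM were summed per gene, and no filter on expression other than 1 FPKM in at least 3 samples was applied. Groups and replicate numbers were taken from the sample labels.

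All 3 comparisons came from 1 limma 3.58.1 fit (R 4.3.3, empirical Bayes with a mean-variance trend) on log2(FPKM + 1) over all 9 samples and 14985 genes, with Benjamini-Hochberg adjustment over all genes tested. The fit was tested on simulated data. Depth was estimated from the steps between low values, so it is approximate, whole reads were not recovered and no count test was run. Tables and figures used Python 3.11.15, pandas 2.3.3, numpy 2.4.6 and matplotlib 3.10.9. Gene positions come from GENCODE 29 and promoter windows from RefSeq (GRCh38.p14). Neither is known to be the annotation that the authors used.

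The transporter families, the gene lists and the alternatives were chosen with earlier results of these data known. Values in each sample are given for FIBP, for members called in any comparison, for SLC7A5, SLC3A2, SLC7A11, SLC1A5, SLC7A1, SLC38A1 and SLC38A2, for the 5 members with the highest mean, and for the 3 largest positive and 3 largest negative differences between the siRNAs. Of the other lists, called genes (at most 4) and the largest change in each direction over both siRNAs are named, and SLC25A13, MFSD12, BCAT2, ATF4, TRIB3, CHAC1, MYC and SLC25A22 with Si-FIBP#1 were added after their values had been seen. The alternatives were a smaller pseudocount (0.1), no filter on level, a floor of 5 FPKM, TPM or median ratio scaling, only the compared groups in the fit, no fold change threshold, only Ensembl transcripts, no mean-variance trend, a replicate block, and the omission of each sample in turn. Protein sequences were not used here.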

Additional observations from a re-analysis of the deposited data

Results flagged for a closer look

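The effects of the 2 siRNAs differed in 6 transporter genes by the limma contrast of Si-FIBP#2 against Si-FIBP#1, each at an adjusted p below 0.05, which compares 3 samples with 3. The log2 difference was 0.46 for SLC3A2, 0.306 for SLC7A1, 0.371 for SLC38A7, 0.40 for SLC1A4, 0.348 for SLC6A17 and -0.522 for SLC36A1. For SLC3A2, SLC7A1 and SLC1A4 the fall with Si-FIBP#1 was the larger, for SLC38A7 and SLC6A17 the rise with Si-FIBP#2 was the larger, and for SLC36A1 the values against Scramble lay on opposite sides of 0. The difference passed under every alternative for SLC3A2 and SLC7A1, in 13 of 18 for SLC38A7 and SLC36A1, in 12 of 17 for SLC1A4 and in 3 of 17 for SLC6A17.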

How the results depend on the processing

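Against Scramble, the fall of SLC7A5 and SLC1A5 and the rise of SLC38A2, SLC6A6 and SLC38A7 passed under each alternative run. With Si-FIBP#1, the number of called members went from 1 (beside 5.66% of all genes) to 2 after TPM scaling and to 2 after median ratio scaling, where SLC1A5 joined SLC7A5. It was 14 with no fold change threshold, beside 27.8% of all genes higher and 19.9% lower. With Si-FIBP#2 the number went from 2 (beside 5.05% of all genes) to 3 with a pseudocount of 0.1, where SLC43A1 joined SLC7A5 and SLC6A6. SLC43A1 was kept only through depleted samples, so its call is a description. The number went to 1 with Ensembl transcripts only. After median ratio scaling it stayed at 2, with SLC1A5 in place of SLC6A6. It was 1 to 2 when each sample was left out, the lower count coming without Scramble replicate 1 or 3 or Si-FIBP#2 replicate 3. It was 16 with no fold change threshold, beside 31.1% of all genes higher and 17.7% lower. The 16 include SLC1A1 and SLC43A1, which were kept only through depleted samples. Between the siRNAs no member was called under any alternative that kept the fold change threshold, and 6 passed without it, beside 9.58% of all genes higher and 5.8% lower. That count of 6 fell to 2 without filtering and ranged from 2 to 7 when each sample was left out, with 2 without Si-FIBP#1 replicate 2 or Si-FIBP#2 replicate 3 and 3 without Si-FIBP#1 replicate 1 or Si-FIBP#2 replicate 1. No share over all genes was computed for the other counts given here. The cause of the changes in count was not tested.

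Values close to 0 that had not passed turned sign, all between the siRNAs unless stated. After median ratio scaling SLC38A2 was at -0.013, SLC1A5 at -0.026, SLC6A15 at -0.017, SLC43A2 at -0.001 and SLC6A17 with Si-FIBP#1 at -3.3e-06. When each sample was left out, SLC38A2 ranged from -0.013 to 0.105, SLC1A5 from -0.016 to 0.052, SLC6A15 from -0.009 to 0.06, SLC43A2 from -0.028 to 0.113, and SLC6A15 with Si-FIBP#2 against Scramble from -0.059 to 0.011.

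Samples with the same number correlated at -0.057 to 0.103 in their deviations from the group means (9 pairs) and those with different numbers at -0.142 to 0.049 (18 pairs), so the numbers were not taken to pair the samples. The replicate block left the counts of called members at 1, 2 and 0 and of members that passed at 14, 16 and 6, but not all the same genes passed. No share over all genes was computed with the replicate block, so these counts have no matching background. With Si-FIBP#1, SLC6A8 was lost (adjusted p 0.0713) and SLC38A9 gained (0.0453), and between the siRNAs SLC6A17 was lost (0.0781) and SLC38A6 gained (0.0451). FPKM values carry no counts. The error of low members such as SLC7A11 and SLC1A1 comes from the spread within 3 groups of 3 samples, moderated over all genes tested.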

Other observations

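SLC6A15, whose gene level hardly moved, changed in the split between its transcripts. ENST00000266682 was at 2.42, 2.76 and 2.53 FPKM in Scramble, against 3.65, 3.55 and 4.14 FPKM in the Si-FIBP#1 samples and 3.12, 4.13 and 3.78 FPKM in the Si-FIBP#2 samples. ENST00000450363 was at 2.64, 2.0 and 2.05 FPKM in Scramble, against 0.93, 1.02 and 1.06 FPKM in the Si-FIBP#1 samples and 1.36, 1.1 and 1.44 FPKM in the Si-FIBP#2 samples. The Scramble samples did not overlap the depleted samples for either transcript, and the share of the first in the gene was 44.7%, 68.4% and 65.5%. These transcripts were picked after their values had been seen, the division of reads between transcripts is an estimate, and no test was run.

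In SLC3A2, Si-FIBP#2 replicate 2 differed from the other samples of its group in how the transcripts were divided. ENST00000338663 was at 46.82 FPKM there against 33.51 and 33.38 FPKM, and ENST00000536981 at 5.87 FPKM against 11.82 and 11.18 FPKM. The second transcript was at 10.8 ± 0.846 FPKM in Scramble and 3.9 ± 0.883 FPKM with Si-FIBP#1 (SD, n = 3). The difference of replicate 2 rests on a single sample and an estimated division of reads. It was picked after its values had been seen and was not tested.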
